A study of Mus musculus with 12 samples.

Results

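Lysine acyltransferases place acetyl, lactyl and related acyl groups on lysine side chains of histones and other proteins, using the matching acyl-coenzyme A as donor, and lysine deacylases take these groups off again. Protein lactylation, in which the acyl group comes from lactate, is reported to be written by p300 and erased by class I histone deacetylases, so the transcripts of these enzymes are of interest in an ischemic brain whose lactate is raised. In the brain these enzymes are best known as co-regulators of transcription in neurons and glia, and the same enzymes also serve acetylation, so their transcript level alone does not measure lactylation.

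The genes described here are 10 of the 31208 genes in the table, taken by their symbol. They are 5 acetyltransferases (Ep300, Crebbp, Kat2a, Kat2b and Kat5), 3 class I deacetylases (Hdac1, Hdac2 and Hdac3) and 2 sirtuins (Sirt1 and Sirt3), and each symbol matched 1 row. Their transcripts were counted in the brains of 12 C57BL/6 mice aged 8 weeks, for which the labels name no transgene or deletion. There were 4 sham mice, 4 mice with 6 h of cerebral ischemia preconditioned with vehicle, and 4 mice with 6 h of ischemia preconditioned with lactate. The methods of the study describe ischemia as occlusion of the left middle cerebral artery with a filament, and the preconditioning as injection of vehicle or sodium D-lactate into the cerebral ventricles on the day before, while the labels say only lactate. Whether sham mice were injected is not given in the sources used here, and no lactate-treated mice without ischemia were included, so ischemia and injection cannot be told apart in a comparison with sham. Both ischemic groups were compared with the same 4 sham mice, so these 2 comparisons share their controls.

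Each library held between 6815920 and 10677224 counts, and the counts were scaled to the library total as CPM (counts per 1000000 counts). A count of 3, taken as the floor of detection, equals 0.281 to 0.440 CPM. The neuron markers summed to 3279 to 5134 CPM over the 12 brains and no neuron, astrocyte, microglia or oligodendrocyte marker was at or under the floor in every mouse of a group, so the defining markers of brain were present. The following values moved with the groups or set single brains apart. The 6 neutrophil markers summed to 3.12 to 4.93 CPM in sham mice, 38.6 to 92.3 CPM with vehicle and 59.5 to 83.1 CPM with lactate. Of the 6, 2 were at or under the floor in all sham mice. Not all 6 moved alike. Lcn2 alone was at 21.5 to 27.3 CPM with vehicle and 41.3 to 45.8 CPM with lactate. Cxcr2 had means of 2.66 CPM in sham, 3.39 CPM with vehicle and 2.14 CPM with lactate. The 4 choroid plexus markers summed to 1837 CPM in vehicle mouse 2 and to 3.96 to 14.2 CPM in the other vehicle mice. They summed to 1.36 to 5.275 CPM in sham and, without overlap, to 9.7 to 18.9 CPM with lactate. The erythrocyte markers summed to 560.4 to 633 CPM in sham mice, and lower in each ischemic mouse, at 333 to 500.4 CPM with vehicle and 375 to 499 CPM with lactate. Those of microglia were at 202 to 215 CPM in sham and 119 to 195 CPM with vehicle, and with lactate, at 185 to 206 CPM, they overlapped sham. Those of astrocytes were at 592 to 889 CPM in sham, 794 to 871 CPM with vehicle and 960 to 1014 CPM with lactate, above both other groups, and of these 6 genes Gfap alone was called against sham by edgeR (log2 fold change 1.64 with vehicle and 2.47 with lactate). With lactate the neuron sum, at 3518 to 3943 CPM, also lay under the sham sums of 3953 to 4118 CPM. The endothelium sum, at 52.6 to 71.6 CPM, lay under 73.0 to 85.0 CPM in sham. Most single markers did not follow these sums. Only 3 of 7 neuron and 2 of 5 endothelium markers had a log2 fold change under 0, with list medians of 0.06 and 0.26. Among single markers edgeR also called P2ry12, Cx3cr1, Mog, Cnp, Slco1a4 and 4 erythrocyte genes as lower in at least 1 of the comparisons with sham. It called Lcn2, S100a8 and S100a9 as higher in both, and Ttr as higher with lactate. The fold and p of these genes are not used, since the ischemic mice alone could bring them into the test. Vehicle mouse 1 had the highest neuron sum of all brains, 5134 CPM, where the other vehicle mice lay under sham at 3279 to 3571 CPM, and the lowest microglia sum. It received a weight of 0.277 in limma voom, where the other mice of that comparison received 0.858 to 1.90. The part of these differences in the results was not tested, and values without a mouse are given where they turn a direction or a call or, for some, move a value by over 1.5 times. In RNA of brain tissue, fewer cells of a type and less RNA per cell cannot be told apart. The regions of brain taken for RNA are not given in the sources used here.

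Several of the 10 enzymes are close relatives, and the counts rest on reads being given to the right one. Over their aligned coding sequences Ep300 and Crebbp share 71.4% of bases, Kat2a and Kat2b 72.2%, Hdac1 and Hdac2 75.9%, Hdac1 and Hdac3 67.0%, and Hdac2 and Hdac3 62.8%. The longest run of identical bases is 29 between Ep300 and Crebbp, 23 between Hdac1 and Hdac3, 19 between Kat2a and Kat2b, and 17 for the other two pairs. The windows below, from GENCODE transcripts on GRCm38, hold the longest shared run of Ep300 and Crebbp and that of Hdac1 and Hdac2. Other stretches were not compared for their similarity. The windows are shown because the levels reported for these genes depend on telling relatives apart, and capitals mark the shared run. The Ep300 window lies in exon 18 of 31 at chr15:81631777-81631845 on the plus strand, and that of Crebbp in exon 18 of 31 at chr16:4108044-4108112 on the minus strand. The Hdac1 window lies in exon 3 of 14 at chr4:129528930-129528986 on the minus strand, and that of Hdac2 in exon 3 of 14 at chr10:36986365-36986421 on the plus strand. All 4 windows are coding, written 5′ to 3′ along the transcript.
Ep300: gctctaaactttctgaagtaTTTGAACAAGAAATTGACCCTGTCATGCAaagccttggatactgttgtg
Crebbp: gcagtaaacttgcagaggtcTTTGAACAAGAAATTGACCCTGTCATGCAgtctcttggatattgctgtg
Hdac1: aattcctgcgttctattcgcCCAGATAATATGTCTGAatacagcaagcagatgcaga
Hdac2: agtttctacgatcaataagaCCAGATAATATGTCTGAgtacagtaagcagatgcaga

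In these windows, 57 of 69 bases are identical between Ep300 and Crebbp and 47 of 57 between Hdac1 and Hdac2. Only reads much longer than any shared run were kept, and whether single reads were given to the wrong relative was not tested. Kat5 overlaps Rnaseh2c, Sirt3 overlaps Ric8a and Psmd13, Sirt1 overlaps the antisense gene Gm16145 and Kat2b overlaps the pseudogene Gm6919, each on the opposite strand. Whether the counting used the strand is not given, so the levels of these 4 genes are uncertain to that extent. On the same strand, where strand cannot separate reads, Ep300 overlaps the small RNA genes Gm23880 and Gm22067, and Crebbp overlaps the unclassified gene Gm37186. How reads there were assigned is not given in the sources used here.

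Against sham, the lactate group had lower Hdac3 transcripts, and by edgeR with the filter used here Hdac3 alone of the 10 enzymes passed the adjusted test, a call that 9 of 15 alternatives kept. Crebbp and Kat2a, and less clearly Ep300, lay lower in both ischemic groups than in sham without passing that test, although 4 of 15 alternatives called Crebbp in lactate against sham. For Kat5, Hdac1, Hdac2 and Sirt3 no difference between groups was shown, and Kat2b and Sirt1 were too low or too variable for a difference to be detected. No enzyme passed as higher in any comparison, and between lactate and vehicle none of the 10 passed.

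**Figure D1:**
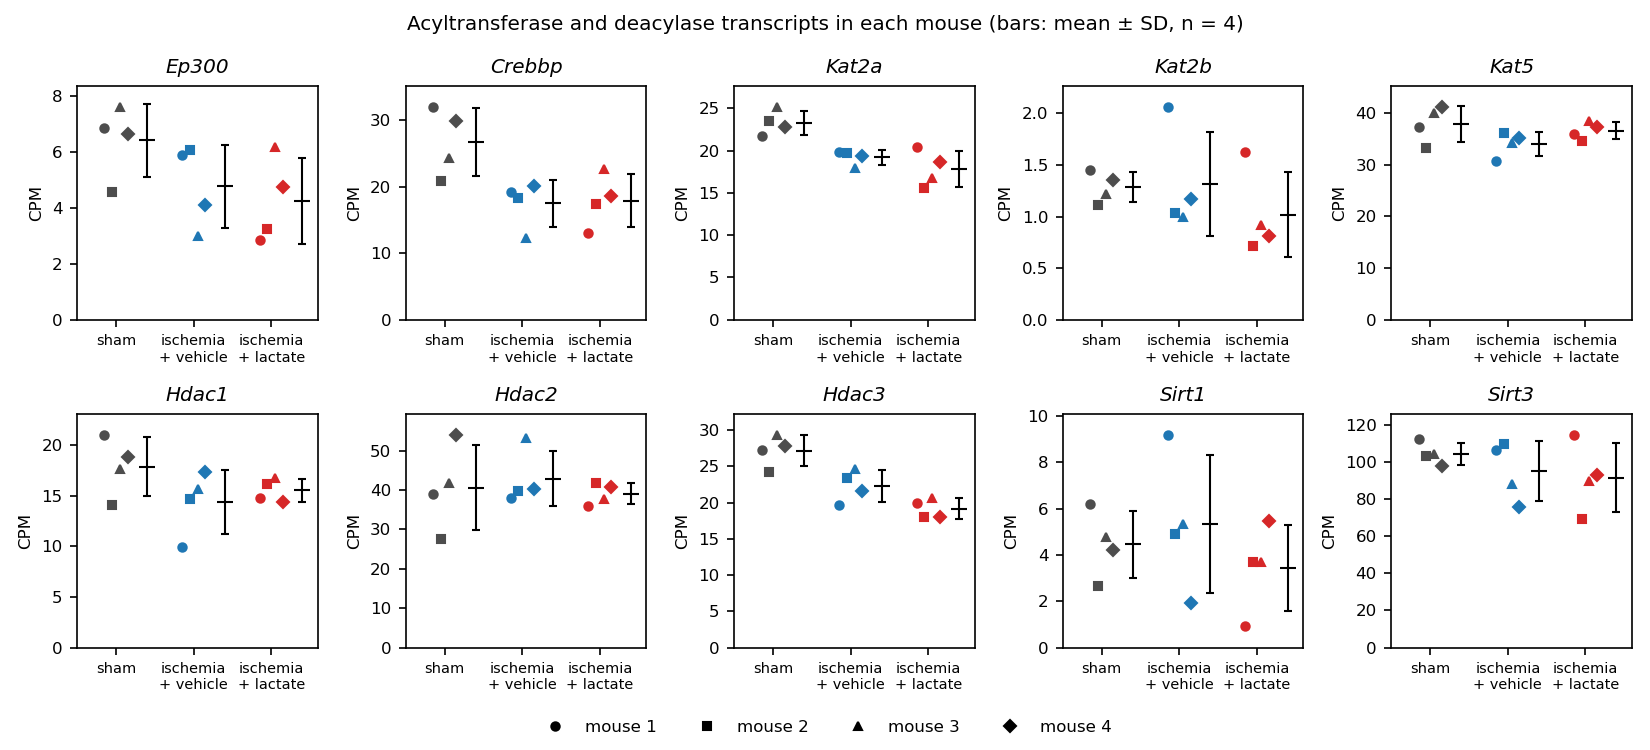
Transcript level (CPM, linear axis from 0) of each enzyme in each of the 12 mice, with 1 symbol per mouse and the group mean ± SD (n = 4) beside it. Hdac3 lies between 24.2 and 29.3 CPM in sham mice and between 17.96 and 20.7 CPM with lactate, and the Kat2a values of both ischemic groups lie under the sham values.

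The first comparison asked what 6 h of ischemia did in vehicle-treated mice. By edgeR's quasi-likelihood test with Benjamini-Hochberg adjustment over 17019 genes, 0 of the 10 enzymes passed an adjusted p under 0.05, where 1.47% of all genes did, and DESeq2 and limma voom also gave 0. At an unadjusted p under 0.05, 1 of the 10 passed (Crebbp, lower), where 13.8% of all genes did. With a fold change of at least 1.5 added, 0 of 10 passed, where 9.52% of all genes did. The vehicle values lay under all sham values for 2 of 10 enzymes, Crebbp and Kat2a, where this held for 4.89% of all genes. The log2 fold change was under 0 for 7 of 10 enzymes and its median was -0.18, beside 8444 of 17019 genes under 0 and a median of 0.0031 over all genes.

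The second comparison set ischemia with lactate against sham. Here 1 of the 10 enzymes passed the adjusted test by edgeR, Hdac3, which fell, beside 12.3% of all 17262 genes, and DESeq2 gave 2 (Hdac3 and Crebbp) and limma voom 1. At an unadjusted p under 0.05, 3 of 10 passed, Crebbp, Kat2a and Hdac3, all lower, beside 27.1% of all genes. With the fold limit of 1.5 added, 0 of 10 passed, beside 17.5% of all genes. The lactate values lay under all sham values for 2 of 10 enzymes, Kat2a and Hdac3, beside 8.74% of all genes. The count of called enzymes is thus close to the share of all genes called. All 10 log2 fold changes were under 0, with a median of -0.31, beside 9172 of 17262 genes under 0 and a median of -0.03 over all genes, although those of Kat5 and Hdac2, both -0.02, changed sign under other settings.

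The third comparison asked what lactate added to ischemia. By edgeR 0 of 10 enzymes passed the adjusted test, beside 0.00574% of all 17419 genes, and DESeq2 and limma voom also gave 0. None of the 10 had an unadjusted p under 0.05, beside 8.84% of all genes, so none passed with the fold limit either, beside 6.23% of all genes. For none did the lactate values all lie under the vehicle values, beside 1.83% of all genes. The log2 fold change was under 0 for 7 of 10, with a median of -0.14, beside 9473 of 17419 genes under 0 and a median of -0.03. The 95% intervals leave room for sizable differences, which for Hdac3 run from -0.57 to 0.09 and for Ep300 from -0.90 to 0.51 on the log2 scale.

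**Figure D2:**
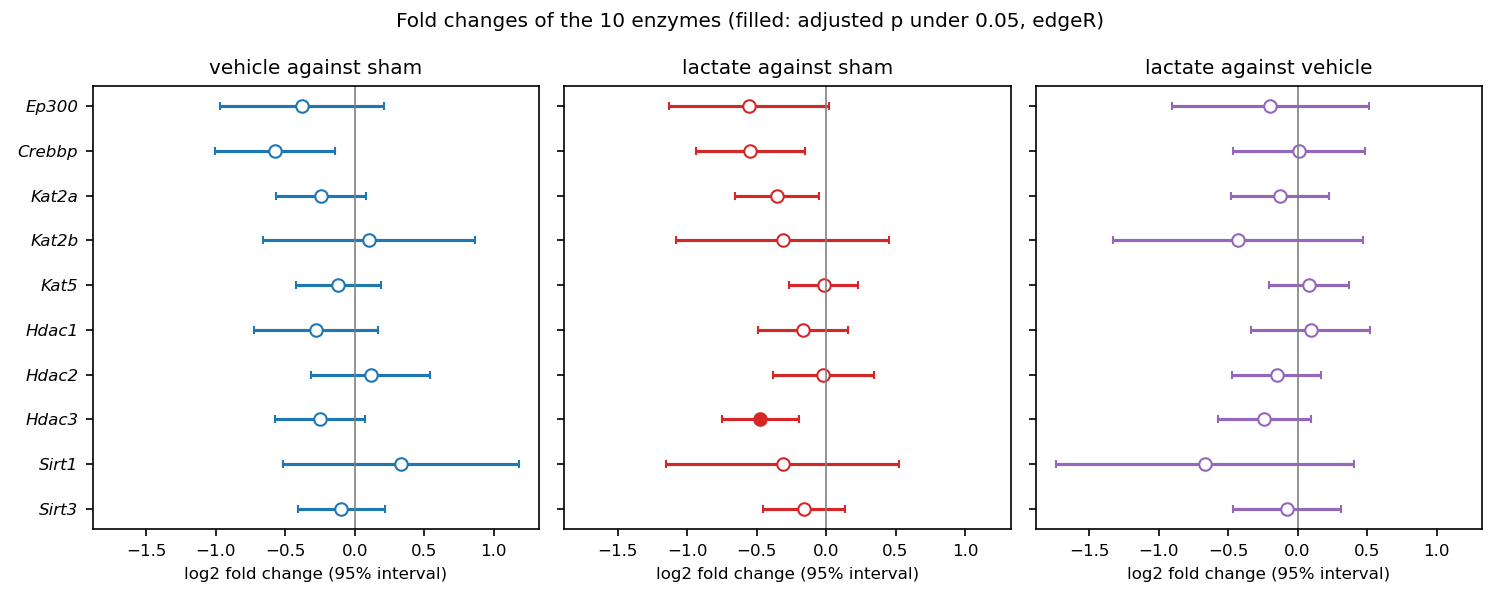
Log2 fold change of each enzyme with its 95% interval (edgeR) in the 3 comparisons, with a filled point where the adjusted p was under 0.05. Only the Hdac3 point in lactate against sham is filled, at -0.47, and the Kat2b and Sirt1 intervals are the widest in each panel.

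Ep300 (ENSMUSG00000055024, chr15:81585351-81652077, plus strand) encodes p300, a large co-activator that binds transcription factors and acylates histone H3, and it is the enzyme most often named as a writer of lactylation. Its levels were 6.86, 4.57, 7.61 and 6.66 CPM in sham mice 1 to 4, 5.90, 6.09, 2.99 and 4.11 CPM with vehicle, and 2.84, 3.23, 6.20 and 4.75 CPM with lactate. These levels rest on 21 to 63 reads per mouse, and the groups overlapped. The means were 6.42 ± 1.30, 4.77 ± 1.49 and 4.26 ± 1.54 CPM (SD, n = 4). In edgeR the log2 fold change was -0.38 (SE 0.27, adjusted p = 0.589) with vehicle against sham and -0.56 (SE 0.27, adjusted p = 0.198) with lactate against sham. The vehicle value was -0.20 without vehicle mouse 3 and -0.56 with limma voom, and leaving out a mouse took the lactate value from -0.78 to -0.41. Lactate differed from vehicle by -0.20 (SE 0.32, adjusted p = 0.888), which ran from -0.42 to -0.05 when a mouse was left out. Ep300 was thus lower on average in both ischemic groups, by an amount not separable from the spread at this depth.

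Crebbp (ENSMUSG00000022521, chr16:4081328-4213997, minus strand) encodes CBP, the paralogue of p300 that was named for its binding to the factor CREB and that supports activity-dependent transcription in neurons. Its levels were 31.9, 20.8, 24.3 and 29.9 CPM in sham mice, 19.2, 18.3, 12.3 and 20.1 CPM with vehicle, and 12.98, 17.4, 22.7 and 18.6 CPM with lactate. All 4 vehicle mice lay under all sham mice, and 3 of 4 lactate mice did, the exception being lactate mouse 3. The mean was 26.7 ± 5.07 CPM in sham and 17.5 ± 3.51 CPM with vehicle, a log2 fold change of -0.57 (SE 0.20, unadjusted p = 0.0133 by edgeR) that did not pass adjustment (adjusted p = 0.226, and 0.107 to 0.444 over the alternatives). With lactate the mean was 17.9 ± 3.99 CPM and the log2 fold change -0.54 (SE 0.18, adjusted p = 0.0675 by edgeR). This call depended on the settings, since the adjusted p ranged from 0.0430 to 0.167 and was under 0.05 with DESeq2 (0.0430), with no filter on low counts (0.0454), without sham mouse 2 (0.0457) and without lactate mouse 3 (0.0441). Between lactate and vehicle the log2 difference was 0.01 (95% interval -0.47 to 0.49).

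Summed over the p300 and CBP transcripts, the level was 33.2 ± 5.89 CPM in sham, 22.2 ± 4.64 CPM with vehicle and 22.2 ± 5.45 CPM with lactate (SD, n = 4). The vehicle sums of 15.3 to 25.1 CPM lay under the sham sums of 25.4 to 38.8 CPM, and 1 of the 4 lactate sums, 28.9 CPM, lay within the sham range. The ratio of Ep300 to Crebbp reads per mouse was 0.243 ± 0.047 in sham, 0.272 ± 0.0590 with vehicle and 0.234 ± 0.0390 with lactate, with overlapping ranges. No test was made on sums or ratios, and they do not compare copy number between genes.

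Kat2a (ENSMUSG00000020918, chr11:100704746-100712465, minus strand) encodes GCN5, the acetyltransferase of the SAGA and ATAC co-activator complexes. Its levels were 21.8, 23.5, 25.1 and 22.8 CPM in sham mice, 19.9, 19.7, 17.9 and 19.4 CPM with vehicle, and 20.4, 15.6, 16.8 and 18.7 CPM with lactate. All 8 ischemic mice lay under all 4 sham mice, and the ischemic groups overlapped each other. The means were 23.3 ± 1.41, 19.2 ± 0.878 and 17.9 ± 2.14 CPM (SD, n = 4). Against sham, edgeR gave Kat2a a log2 fold change of -0.24 (SE 0.15, adjusted p = 0.507) with vehicle and -0.36 (SE 0.14, unadjusted p = 0.0246, adjusted p = 0.119) with lactate. Under the alternatives the adjusted p stayed between 0.354 and 0.711 with vehicle and between 0.0902 and 0.277 with lactate. The spread of Kat2a within groups, 6.06%, 4.57% and 11.97% of the mean, was near the 7.32%, 7.91% and 8.38% that counting error alone gives.

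Kat2b (ENSMUSG00000000708, chr17:53566861-53672720, plus strand) encodes PCAF, the paralogue of GCN5. It was counted with 6 to 22 reads per mouse, at 1.12 to 1.45 CPM in sham, 0.996 to 2.06 CPM with vehicle and 0.719 to 1.62 CPM with lactate. The highest value was that of vehicle mouse 1, and without this mouse the log2 fold change of vehicle against sham turned from 0.10 to -0.23. Against sham the lactate value was -0.31 (SE 0.36, adjusted p = 0.622 by edgeR), and the 95% interval from -1.08 to 0.45 shows how little this depth can tell. Leaving out a mouse took the lactate value of Kat2b from -0.61 to -0.17.

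Kat5 (ENSMUSG00000024926, chr19:5603014-5610237, minus strand) encodes TIP60, the acetyltransferase of the NuA4 complex, which acts in the response to DNA damage. Its levels were 37.2, 33.1, 39.9 and 41.1 CPM in sham mice, 30.7, 36.0, 34.2 and 35.1 CPM with vehicle, and 35.8, 34.6, 38.5 and 37.2 CPM with lactate. The 3 groups overlapped, and the 4 lactate mice lay within the sham range. For Kat5 the log2 fold change was -0.12 (SE 0.14, 95% interval -0.42 to 0.19) with vehicle and -0.02 (SE 0.12, 95% interval -0.27 to 0.23) with lactate against sham. Leaving out a mouse took the Kat5 value with vehicle from -0.16 to -0.06. The interval with lactate is the narrowest of the 10 enzymes in that comparison.

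Hdac3 (ENSMUSG00000024454, chr18:37935844-37955016, minus strand) encodes the catalytic subunit of nuclear receptor co-repressor complexes, and it is one of the class I enzymes named as erasers of lactylation. Its levels were 27.3, 24.2, 29.3 and 27.9 CPM in sham mice, 19.7, 23.4, 24.7 and 21.6 CPM with vehicle, and 20.01, 17.96, 20.7 and 17.97 CPM with lactate. All lactate mice lay under all sham mice, and 3 of 4 vehicle mice did, with vehicle mouse 3 just inside the sham range. The means were 27.2 ± 2.17, 22.3 ± 2.18 and 19.2 ± 1.41 CPM (SD, n = 4), on 147 to 226 reads per mouse.

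With lactate against sham Hdac3 fell by 0.47 on the log2 scale, a fold of 0.721 (SE 0.13, 95% interval -0.75 to -0.20, adjusted p = 0.0290 by edgeR). The fall stayed between -0.52 and -0.43 under all 15 alternatives, but the call did not hold under all of them, and 9 of 15 kept it. The adjusted p was 0.0527 with the genes that have an Ensembl identifier alone, 0.0562 without sham mouse 1, 0.0885 without sham mouse 3, 0.0719 without sham mouse 4, 0.0787 without lactate mouse 2 and 0.0734 without lactate mouse 4. With vehicle against sham the log2 fold change of Hdac3 was -0.25 (SE 0.15, adjusted p = 0.501), and the direct difference of lactate from vehicle was -0.24 (SE 0.15, adjusted p = 0.672). The fall against sham is therefore not shown to differ between the 2 ischemic groups. In lactate against sham 11.8% of all genes had a log2 fold change lower than that of Hdac3.

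Hdac1 (ENSMUSG00000028800, chr4:129516104-129542713, minus strand) and Hdac2 (ENSMUSG00000019777, chr10:36974544-37001889, plus strand) encode a pair of closely related deacetylases that work together in the Sin3, NuRD and CoREST complexes. Hdac1 was at 21.0, 14.1, 17.7 and 18.8 CPM in sham mice, 9.93, 14.6, 15.7 and 17.3 CPM with vehicle, and 14.7, 16.2, 16.8 and 14.4 CPM with lactate. Its groups overlapped, and vehicle mouse 1 had the lowest value of all 12 mice. The log2 fold change of Hdac1 was -0.28 (SE 0.20, adjusted p = 0.600 by edgeR) with vehicle and -0.17 (SE 0.15, adjusted p = 0.517) with lactate against sham. Without vehicle mouse 1 the Hdac1 value with vehicle was -0.13, and leaving out a mouse took the value with lactate from -0.26 to -0.10.

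Hdac2 was at 38.9, 27.6, 41.8 and 54.0 CPM in sham mice, 38.1, 39.8, 53.3 and 40.4 CPM with vehicle, and 35.97, 41.9, 37.8 and 40.8 CPM with lactate. The sham mice held both the lowest and the highest value of the 12, and both ischemic groups lay within their range. The SD was 10.8 CPM in sham and 2.72 CPM with lactate. The log2 fold change was 0.12 (SE 0.20, 95% interval -0.31 to 0.54) with vehicle and -0.02 (SE 0.17, 95% interval -0.38 to 0.35) with lactate, and both are near 0 with signs that changed under other settings.

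The summed level of Hdac1, Hdac2 and Hdac3 was 85.6 ± 14.5 CPM in sham, 79.6 ± 10.66 CPM with vehicle and 73.8 ± 2.39 CPM with lactate (SD, n = 4), with overlapping ranges. The ratio of summed Ep300 and Crebbp to this sum was 0.388 ± 0.0395 in sham, 0.288 ± 0.0880 with vehicle and 0.299 ± 0.0683 with lactate. The ranges of this ratio overlapped too, at 0.359 to 0.445, 0.164 to 0.371 and 0.224 to 0.384. The ratio of Hdac3 to Kat5, a pair chosen after its values were seen, was 0.679 to 0.735 in sham, 0.615 to 0.720 with vehicle and 0.483 to 0.559 with lactate, and it needs no scaling between libraries. As a description, the lactate mice lay under all other mice in this ratio. In 5 other ratios between enzymes lactate and vehicle overlapped, such as Crebbp to Kat5, at 0.360 to 0.625 with vehicle and 0.362 to 0.589 with lactate, and Hdac2 to Hdac3, at 1.70 to 2.16 and 1.80 to 2.33.

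**Figure D3:**
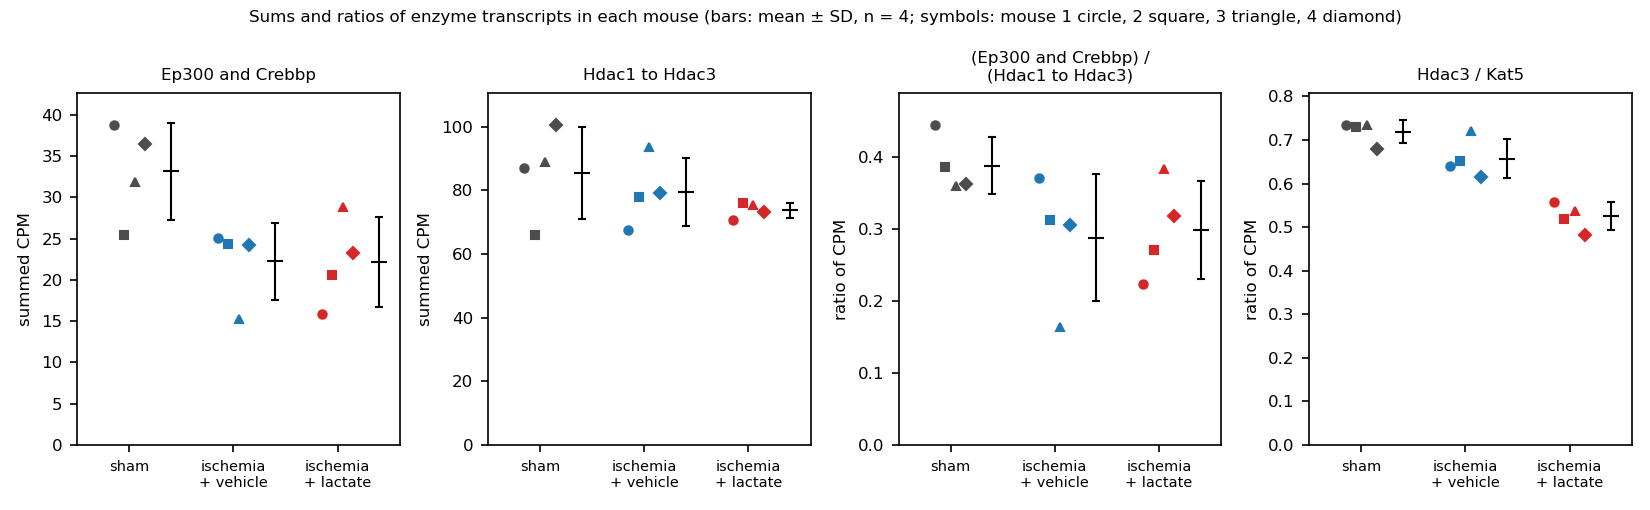
Summed levels (CPM) and ratios of enzyme transcripts in each mouse, with 1 symbol per mouse and the group mean ± SD (n = 4), on linear axes from 0. The lactate mice lie at 0.483 to 0.559 in the ratio of Hdac3 to Kat5, which was picked after its values were seen, under the vehicle mice at 0.615 to 0.720, while the other 3 panels show overlap of lactate with both other groups.

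Sirt1 (ENSMUSG00000020063, chr10:63319005-63381704, minus strand) encodes a nuclear deacetylase that needs NAD+ and so is tied to energy metabolism. Its levels were 6.20, 2.68, 4.75 and 4.19 CPM in sham mice, 9.18, 4.92, 5.35 and 1.91 CPM with vehicle, and 0.947, 3.71, 3.69 and 5.45 CPM with lactate. The vehicle group held the highest value and the lactate group the lowest, and all groups overlapped. The SD was 32.7% of the mean in sham, 55.9% with vehicle and 53.9% with lactate, where counting error alone gives 16.9%, 14.4% and 18.8%. For Sirt1 the log2 fold change against sham was 0.33 (SE 0.39, adjusted p = 0.767 by edgeR) with vehicle, which turned to -0.07 without vehicle mouse 1, and -0.31 (SE 0.39, adjusted p = 0.658) with lactate, which ran from -0.61 to -0.01 when a mouse was left out. Lactate differed from vehicle by -0.67 (SE 0.49, adjusted p = 0.720), and by -0.25 without vehicle mouse 1.

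Sirt3 (ENSMUSG00000025486, chr7:140863666-140882309, minus strand) encodes the main deacetylase of the mitochondrial matrix, which acts on enzymes of fuel oxidation. Its levels were 112, 103, 104 and 97.9 CPM in sham mice, 107, 110, 88.3 and 75.9 CPM with vehicle, and 115, 69.3, 89.5 and 92.9 CPM with lactate. The sham mice lay close together, and 2 of 4 vehicle mice and 3 of 4 lactate mice lay under all of them. The SD was 5.76% of the mean in sham, 16.7% with vehicle and 20.2% with lactate. For Sirt3 the log2 fold change was -0.10 (SE 0.14, 95% interval -0.41 to 0.21) with vehicle and -0.16 (SE 0.14, 95% interval -0.45 to 0.13) with lactate against sham, where leaving out a mouse gave -0.28 to -0.04.

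Fold changes were lower for genes with long transcripts, both against sham and in lactate against vehicle. In lactate against sham the median log2 fold change of coding genes was -0.02 for those whose longest transcript is under 1500 bases and -0.18 for those of 8000 bases or more. In vehicle against sham the same medians were -0.02 and -0.08, and in lactate against vehicle -0.01 and -0.10. Ep300 (9566 bases) and Crebbp (10820 bases) are the 2 enzymes in the longest class. Within it, 12.7% and 13.3% of genes lay lower than Ep300 and Crebbp in lactate against sham, and 15.0% and 5.65% did in vehicle against sham. Hdac3 and Kat2a (3585 and 3269 bases) lie in the class of 2500 to 3999 bases, whose median was -0.04 in lactate against sham, and 11.5% and 18.0% of its genes lay lower than these genes. The part of length in the values of Ep300 and Crebbp was not tested further.

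**Figure D4:**
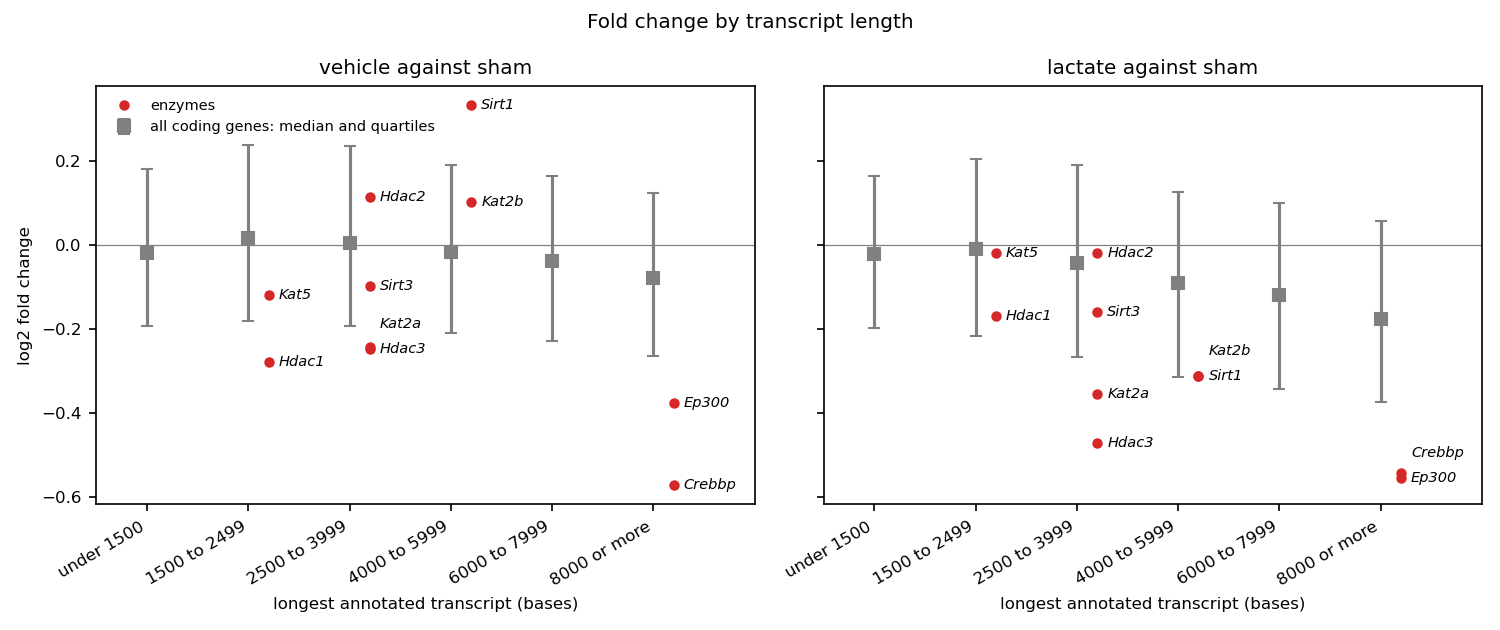
Log2 fold change by length of the longest annotated transcript, for vehicle and lactate against sham, with the median and quartiles of all coding genes of a class in grey and the enzymes in red. The class medians go down to -0.18 at 8000 bases or more with lactate, and Ep300 and Crebbp lie under the lower quartile of that class in both panels.

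The other genes of the same pathways were read from lists, and most did not pass the adjusted test. Their counts stand beside 1.47% of all genes called in vehicle against sham and 12.3% in lactate against sham, and a count near that share is no result about a list. Of 14 tested other acetyltransferases, 0 passed in vehicle against sham and 1 in lactate against sham, Kat6b (MORF, a MYST family enzyme), at 26.5 ± 2.16 CPM in sham and 16.6 ± 1.62 CPM with lactate (log2 fold change -0.64, SE 0.13, adjusted p = 0.00867 by edgeR). Their median log2 fold change was -0.24 with vehicle and -0.13 with lactate. In vehicle against sham the smallest p was that of Kat7 (HBO1), which lay higher (0.39, SE 0.15, adjusted p = 0.286).

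Of 8 other zinc-dependent deacetylases, 0 passed with vehicle and 2 fell with lactate against sham, beside 12.3% of all genes, Hdac5 and Hdac9. Both are class IIa enzymes, which bind MEF2 factors, while the other two of that class did not pass, Hdac4 (log2 fold change 0.19, adjusted p = 0.591 by edgeR) and Hdac7 (-0.65, adjusted p = 0.0734). Hdac5 was at 79.6 ± 8.54 CPM in sham and 42.4 ± 6.54 CPM with lactate (log2 fold change -0.88, SE 0.13, adjusted p = 0.00119 by edgeR). Hdac9 was at 9.17 ± 1.89 CPM in sham and 4.83 ± 1.69 CPM with lactate (-0.89, SE 0.25, adjusted p = 0.0367). With vehicle, Hdac9 had the smallest p of this list (-0.54, SE 0.27, adjusted p = 0.410). None of 5 other sirtuins passed in either comparison with sham. Sirt6, a nuclear sirtuin, had the smallest p with vehicle (-0.64, SE 0.29, adjusted p = 0.342), and Sirt5, which removes negatively charged acyl groups in mitochondria, with lactate (-0.32, SE 0.14, adjusted p = 0.163).

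Of the subunits of class I deacetylase complexes, 3 of 23 passed in lactate against sham, which is close to the 12.3% of all genes. In vehicle against sham 1 of 24 had an adjusted p under 0.05, Sap30, a subunit of the Sin3 complex. It lay at 0.132 to 0.446 CPM in sham mice, on 1 to 4 reads, and at 1.47 to 7.97 CPM with vehicle, on 10 to 64 reads. Sap30 entered the test through the vehicle mice alone, so it had to differ, and its fold and p are not used. With lactate, Gps2, a subunit of an Hdac3 complex, rose from 25.2 ± 4.31 to 35.8 ± 6.15 CPM (0.54, SE 0.16, adjusted p = 0.0477 by edgeR). The other two fell, Mier1, which recruits Hdac1 and Hdac2, from 41.3 ± 3.26 to 25.3 ± 3.54 CPM (-0.68, SE 0.14, adjusted p = 0.00749), and Ncor1, a scaffold of an Hdac3 complex, from 158 ± 12.1 to 123 ± 9.66 CPM (-0.33, SE 0.10, adjusted p = 0.0422).

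Of 22 subunits of SAGA, ATAC and NuA4, the complexes of Kat2a, Kat2b and Kat5, 0 passed in either comparison with sham, and Brd8 of NuA4 had the smallest p in both (-0.49, SE 0.15, adjusted p = 0.148 with vehicle and -0.37, SE 0.13, adjusted p = 0.0861 with lactate, by edgeR). None of the 4 BET proteins, which read acetylated lysine, passed, and Brd3 had the smallest p in both (adjusted p = 0.443 and 0.371). Of 15 tested genes of acyl-coenzyme A, NAD+ and lactyl supply, 0 passed with vehicle, where Acss2, which makes acetyl-coenzyme A from acetate, had the smallest p (0.34, SE 0.20, adjusted p = 0.480). With lactate 1 of 15 rose, beside 12.3% of all genes called, Nmnat2, an enzyme of NAD+ synthesis in axons, from 64.6 ± 3.99 to 94.8 ± 10.5 CPM (0.58, SE 0.12, adjusted p = 0.00670).

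In lactate against vehicle, 0 genes of these 7 lists passed the adjusted test by edgeR. The smallest p in each list was that of the circadian factor Clock (0.37, adjusted p = 0.589), Hdac5 (-0.94, adjusted p = 0.360), Sirt4 (0.51, adjusted p = 0.605), Gps2 (0.51, adjusted p = 0.526), Supt20 (-0.24, adjusted p = 0.743), Brdt (-0.29, adjusted p = 0.773) and Nmnat2 (0.34, adjusted p = 0.573).

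**Figure D5:**
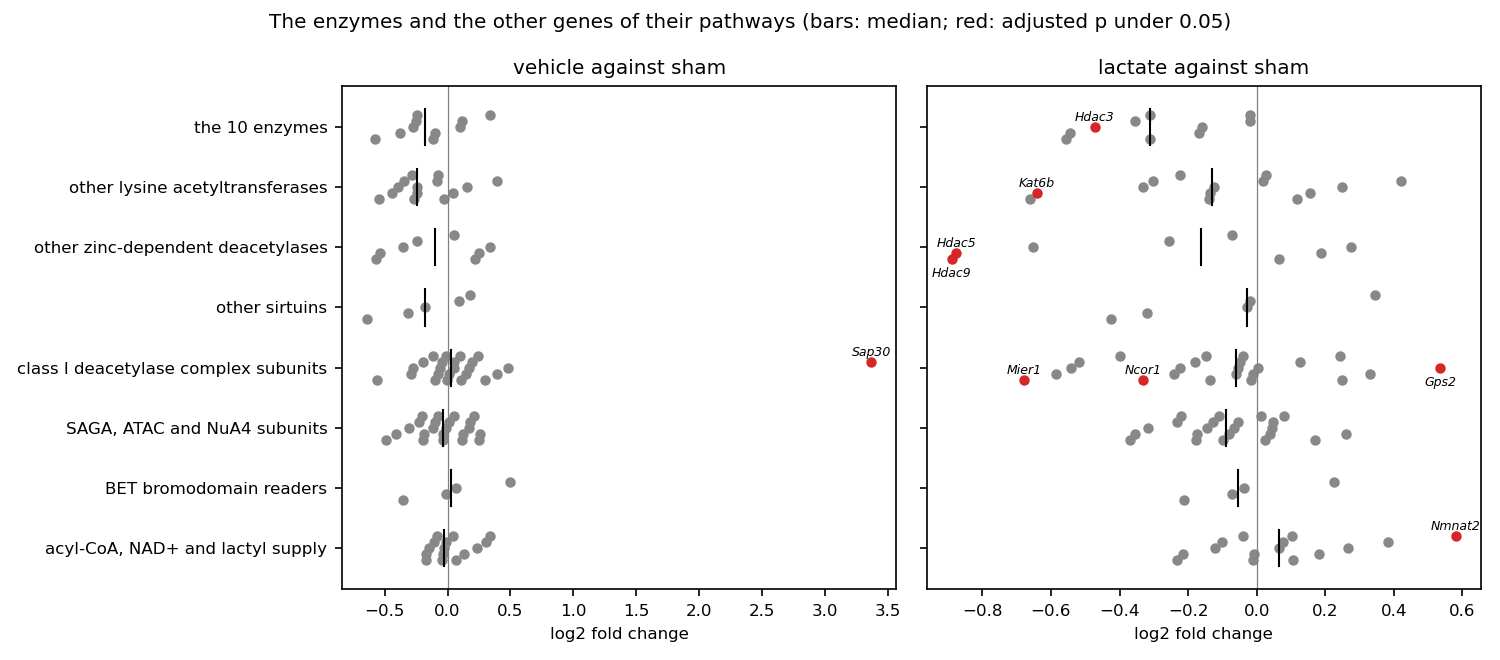
Log2 fold change of the 10 enzymes and of the other genes of their pathways, 1 point per gene, in vehicle and lactate against sham (the axes of the panels differ), with a bar at each list's median and red points with names where the adjusted p was under 0.05. The named points are Sap30 with vehicle, which entered the test through the vehicle mice alone, and Hdac3, Kat6b, Hdac5, Hdac9, Mier1, Ncor1, Gps2 and Nmnat2 with lactate.

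In the pathway annotation of the table, 7 of the 10 enzymes are in the thyroid hormone signaling pathway, in which co-activators and co-repressors trade places on the receptor, and these are Ep300, Crebbp, Kat2a, Kat2b, Hdac1, Hdac2 and Hdac3, of 150 genes listed there. The Notch pathway holds 6 of the 10 (the same without Hdac3) of 78 genes, and nicotinate and nicotinamide metabolism holds Sirt1 and Sirt3 of 45 genes.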

How the data were processed

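Brain RNA of 12 mice (3 groups of 4, grouped by the sample labels) was analysed. The authors made full-length cDNA, sequenced it as nanopore reads, removed short, low-quality and ribosomal reads, mapped the rest with minimap2, and used pinfish and gffcompare for transcripts. The submitters' processing notes name GRCm38 and DESeq 1.10.1, and the counting per gene and its annotation are not given in the sources used here. The deposited count values are raw, and the CPM values deposited by the authors equal each count over the total of its mouse. The table also holds the authors' own edgeR results for the pairs of groups, P values and log2 fold changes, which were not used. The 4 lines without a gene were left out, and 0 per-sample columns stayed unmapped.

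Each comparison was a separate quasi-likelihood fit of its 2 groups in edgeR 4.0.16 under R 4.3.3, scaled by TMM. Genes entered when 4 or more of the 8 mice reached 1 CPM, and p-values were adjusted by Benjamini-Hochberg across every gene in the fit. The labels do not say how mice of a group relate beyond their number, so p-values measure the spread between these 4 mice. Alternatives were DESeq2 size factors, the DESeq2 1.42.0 Wald test, limma 3.58.1 voom with quality weights, no filter, all 12 mice in a fit, only genes with an Ensembl identifier, the mouse number as a block, and leaving out each mouse. All 10 enzymes passed the filter in each comparison. The fits were tested on simulated data. Pairs of mice of a group differed by 5.28 to 36.2 times sampling noise (chi-square per gene), so no pair differed by sampling noise alone. Whether libraries were made from the same RNA cannot be read from this. Positions and transcripts are those of GENCODE release M21, and coding sequences were aligned with Biopython 1.88. Python 3.11.15, numpy 2.4.6, pandas 2.3.3 and matplotlib 3.10.9 were used. Floors and intervals of counts cover counting error only, since reads carry no molecular identifiers.

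The enzymes and gene lists were chosen with earlier results of these data known. Named genes are the 10 enzymes and, of each other list, up to 3 called genes with the largest log2 fold change per comparison, or, with none called, the gene with the smallest p. A gene of the list of class I deacetylase complex subunits is not reported here and was left out of the counts of that list.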

Additional observations from a re-analysis of the deposited data

Results flagged for a closer look

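In 30 groups of 4 values (10 enzymes in 3 groups), a single mouse lay far from the other 3 in 2 cases, and chance alone gives about 1 in 20. Kat2b was at 2.06 CPM in vehicle mouse 1, on 22 reads where the other vehicle mice had 8 reads each, and this gap took 0.833 of the group's range. Without this mouse the log2 fold change of Kat2b in vehicle against sham was -0.23 in place of 0.10. Hdac2 was at 53.3 CPM in vehicle mouse 3, and this gap took 0.853 of the range. Without this mouse the log2 fold change of Hdac2 in vehicle against sham was 0.003 in place of 0.12. Neither gene passed the adjusted test in edgeR with or without these mice.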

How the results depend on the processing

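Across the 30 log2 fold changes of the enzymes, 415 of 446 alternative values kept their direction and their side of the threshold, 21 changed sign, 6 lost a call and 4 gained one, while Kat2b missed the filter in 4 fits of lactate against vehicle. In lactate against sham, the count of enzymes called at an adjusted p under 0.05 was 1 and became 2 with DESeq2 and 2 with no filter on low counts (Crebbp beside Hdac3), and 0 with Ensembl genes alone, and it ran from 0 to 2 when a mouse was left out. The count past the unadjusted limits, 0, became 2 with no filter and ran from 0 to 2 without a mouse in lactate against sham, and became 1 with limma voom and ran from 0 to 1 without a mouse in vehicle against sham. In lactate against vehicle both counts stayed at 0 under every alternative run. The same mouse number was also used as a replicate block, although the labels do not say what mice of a number share. Same-numbered mice were different animals and correlated from -0.18 to 0.18, and not every mouse correlated best with its own number. With this block the adjusted counts of enzymes stayed 0, 1 and 0, and those of all genes were 198, 2283 and 1. The block turned Hdac2 in lactate against sham to 0.011.

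The other changes of sign were of values near 0 or of few reads, and their cause was not tested. Limma voom gave -0.143 for Kat2b in vehicle against sham and 0.0102 for Ep300 in lactate against vehicle. Ensembl genes alone gave 0.025 for Kat5 and 0.0244 for Hdac2 in lactate against sham, and no filter gave -0.0152 for Crebbp in lactate against vehicle. With a mouse left out, vehicle against sham ran from -0.229 to 0.228 for Kat2b, -0.0149 to 0.297 for Hdac2, -0.0717 to 0.608 for Sirt1 and -0.168 to 0.00311 for Sirt3. Lactate against sham ran from -0.0682 to 0.0287 for Kat5 and -0.161 to 0.157 for Hdac2. Lactate against vehicle ran from -0.127 to 0.134 for Crebbp, -0.045 to 0.196 for Hdac1 and -0.206 to 0.0415 for Sirt3. In the fit without a filter, and in the fits of fewer mice or genes, another number of genes was tested.

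Over all genes, calls at an adjusted p under 0.05 moved from 250 to 476 with DESeq2 and 395 with limma voom in vehicle against sham, and to 114 to 369 without a mouse. They moved from 2124 to 1003 with Ensembl genes alone and to 1295 to 1934 without a mouse in lactate against sham, and from 1 to 62 with DESeq2, to 2 with limma voom, no filter or Ensembl genes alone, and to 0 to 5 without a mouse in lactate against vehicle. Kat2b, at 6 to 22 reads, allows no statement on direction.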

Other observations

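Hdac5, which was picked here after its values were seen, had the smallest p of the genes in the 7 pathway lists in lactate against vehicle. It was at 56.9 to 101 CPM in vehicle mice and at 33.5 to 48.0 CPM in lactate mice, so the groups did not overlap, while sham mice lay at 68.2 to 88.9 CPM. The log2 difference was -0.94 (SE 0.20), with an adjusted p of 0.360 by edgeR, so it did not pass over all genes.

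Alanyl-tRNA synthetases, which are named as lactyltransferases in other work, showed no call. Aars was at 53.7 ± 4.43 CPM in sham, 51.9 ± 4.90 CPM with vehicle and 55.4 ± 7.82 CPM with lactate, and Aars2 at 9.11 ± 0.616, 8.43 ± 1.57 and 10.1 ± 0.218 CPM (SD, n = 4). The adjusted p-values by edgeR were 0.746 for Aars and 0.492 for Aars2 in lactate against sham.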
